A study of Rattus norvegicus with 8 samples.

Results

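The albumin gene family was followed through its members Alb, Afp, Afm and Gc, 4 of the 14511 genes measured in rat liver. Each member was read by the 1 probe set that carries its symbol alone. RNA of female rats of the outbred Wistar strain was hybridised to 8 Affymetrix Rat Gene 1.0 ST arrays. The first group was the liver left 8 h after partial hepatectomy (PH), an operation that removes the lateral lobes. The other groups were unoperated livers at 2, 4 and 12 weeks of age. Each of the 4 groups had 2 arrays. How old the operated rats were is not stated and livers after sham surgery were not analysed here, so age, surgery and sampling hour cannot be told apart when PH is set against 12 weeks. Arrays of 1 group are titled as biological replicates, but the design mentions processing in duplicate, so p-values cover only the spread between these arrays, which may be technical.

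The family arose by gene duplication, and its proteins are secreted into plasma by hepatocytes as carriers. Albumin (Alb) is the main plasma protein and carries fatty acids and many drugs. Alpha-fetoprotein (Afp) is the major plasma protein of the fetus, made by yolk sac and fetal liver, and is known to be silenced in liver after birth. Afamin (Afm) binds vitamin E and Wnt proteins, and the vitamin D binding protein (Gc) carries vitamin D metabolites and scavenges actin. In mice the postnatal silencing of Afp depends on the repressors Zhx2 and Zbtb20, while HNF1, C/EBP and FOXA factors drive the promoters of the family.

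In RefSeq's gene table for the rat build GRCr8, all 4 members lie on chromosome 14, with Afm, Afp and Alb as direct neighbours among protein-coding genes and Gc further along. RefSeq's promoter table held 3 of the members. The 250 bases before each gene start are shown because the adjacent genes Afp and Alb had different patterns over age, and capitals mark the HNF1 half-site GTTAAT.
Afp (GRCr8, chr14:17875646-17875895, minus strand): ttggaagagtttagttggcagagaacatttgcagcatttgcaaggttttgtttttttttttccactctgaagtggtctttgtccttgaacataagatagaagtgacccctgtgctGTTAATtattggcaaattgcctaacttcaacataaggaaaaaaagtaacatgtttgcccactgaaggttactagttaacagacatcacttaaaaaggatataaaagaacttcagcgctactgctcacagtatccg
Alb (GRCr8, chr14:17906980-17907229, minus strand): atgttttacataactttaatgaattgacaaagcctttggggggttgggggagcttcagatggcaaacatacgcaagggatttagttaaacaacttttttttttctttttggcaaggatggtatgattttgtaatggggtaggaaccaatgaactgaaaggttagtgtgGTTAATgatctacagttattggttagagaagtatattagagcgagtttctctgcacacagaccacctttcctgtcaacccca
Gc (GRCr8, chr14:18916005-18916254, plus strand): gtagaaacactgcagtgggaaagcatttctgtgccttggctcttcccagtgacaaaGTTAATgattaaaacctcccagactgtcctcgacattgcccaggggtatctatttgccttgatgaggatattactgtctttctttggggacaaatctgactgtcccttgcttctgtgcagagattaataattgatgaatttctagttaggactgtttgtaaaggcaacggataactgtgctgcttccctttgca
GTTAAT stood once in each of these windows, at positions -135 to -130 before Afp, -82 to -77 before Alb and -194 to -189 before Gc (the base next to the gene start is -1). Read on both strands, it was present in 6.45% of the 33469 promoter windows of the same length. The TATA box TATAAA, present in 12.9% of windows, was found before Afp at -37 to -32, but these letters were not in the Alb and Gc windows. The CCAAT box CCAAT, in 34% of windows, was found once before Afp and at 2 places before Alb. The FOXA core TGTTTNC, in 18.3% of windows, occurred once before each of Afp and Alb. The pattern TTNNGNAA of C/EBP factors and of the PAR family (Dbp, Tef, Hlf), in 37.2% of windows, occurred once before Afp and at 3 places before Alb. No 2 of these matches overlapped, both strands were searched for each motif, and a match of letters does not show that a factor binds.

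Levels are on the log2 scale of robust multi-array averaging (RMA), in which 1 unit is a 2-fold difference. They are compared between groups and not between probe sets, whose brightness depends on their probes. Array medians lay between 5.98 and 6.17. Across genes, the paired arrays had r between 0.952, for the 12-week group, and 0.98, for PH. At least 2-fold differences between arrays of a group numbered 1838 genes at 12 weeks and from 432 to 621 in the others. The median of 1283 chemosensory receptor genes (olfactory, vomeronasal and taste), taken as a background level, was 4.66 and 4.17 for PH, between 4.02 and 4.07 on the 2- and 4-week arrays, and 4.74 and 3.92 on the 12-week arrays. The 10 listed hepatocyte markers were bright in all groups, with a mean level between 12.84 and 13.06 on every array. The number of arrays limits the precision. Between 2 groups of 2 arrays an exact two-sided permutation test cannot go below p = 0.333. Where arrays of 2 groups are said below not to overlap, this alone is a description and no support. The share of all genes without overlap is not given here.

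Afp was the member that changed. It read 6.49 and 6.41 on the PH arrays, 13.7 and 13.44 at 2 weeks, 7.6 and 7.13 at 4 weeks, and 6.52 and 7.46 at 12 weeks. Both 2-week arrays stood far above the other 6, which did not overlap with them. Afp averaged 6.99 ± 0.66 at 12 weeks and 13.57 ± 0.18 at 2 weeks (SD, n = 2 each). It fell by 6.58 ± 0.33 (log2, SE, limma adjusted p = 1.0e-04) in 12-week against 2-week livers, which is 95.7-fold on this scale. In bulk tissue, fewer cells of a type and less RNA per cell cannot be told apart.

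Nearly all of that difference was already present at 4 weeks. Afp averaged 7.36 ± 0.33 at 4 weeks and 13.57 ± 0.18 at 2 weeks, lower by 73.8-fold (difference -6.21 ± 0.33, limma adjusted p = 6.7e-04). Between 12 and 4 weeks it differed by -0.37 ± 0.33 (limma adjusted p = 0.9994), with a 95% interval from -1.13 to 0.39. The second 12-week array lay within the range of the 4-week arrays. Without the first 12-week array this last difference turned to 0.094, and without the second it was -0.84. The order of the group means, PH, 12, 4 and 2 weeks, therefore held a clear step only below the 2-week livers, and neighbours among the lower 3 did not differ beyond the test's threshold.

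Operated livers had low Afp. They averaged 6.45 ± 0.06 against 13.57 ± 0.18 at 2 weeks, a difference of -7.12 ± 0.33 or 139-fold (limma adjusted p = 7.3e-05). Against 4-week livers (7.36 ± 0.33) they differed by -0.91 ± 0.33, with a 95% interval from -1.67 to -0.15 and a limma adjusted p of 0.3803, so the difference did not pass over all genes. Against 12-week livers (6.99 ± 0.66) they differed by -0.54 ± 0.33, with a 95% interval from -1.3 to 0.22 and an adjusted p of 1. Both PH arrays lay below both 12-week arrays. Leaving out the first 12-week array gave -1.01 and leaving out the second gave -0.071.

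Outside the 2-week livers Afp read in the middle of the scale, above the median of every array and above most receptor genes. Of all probe sets, 42.5% and 44% were brighter on the PH arrays, 26.9% and 33.3% at 4 weeks, and 42.7% and 29.8% at 12 weeks. At 2 weeks 0.0616% and 0.13% were brighter, and Afp lay 0.54 and 0.7 below the array maximum. Whether its probes could still respond to more RNA there was not tested, so the fold values hold for this scale only. On the PH arrays 99% and 99.2% of the receptor genes read lower than Afp, on the 4-week arrays 99.8% each, and on the 12-week arrays 96.4% and 100%. Afp had the second widest span of group means among all genes (7.12 log2 units, 1 gene wider).

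**Figure D1:**
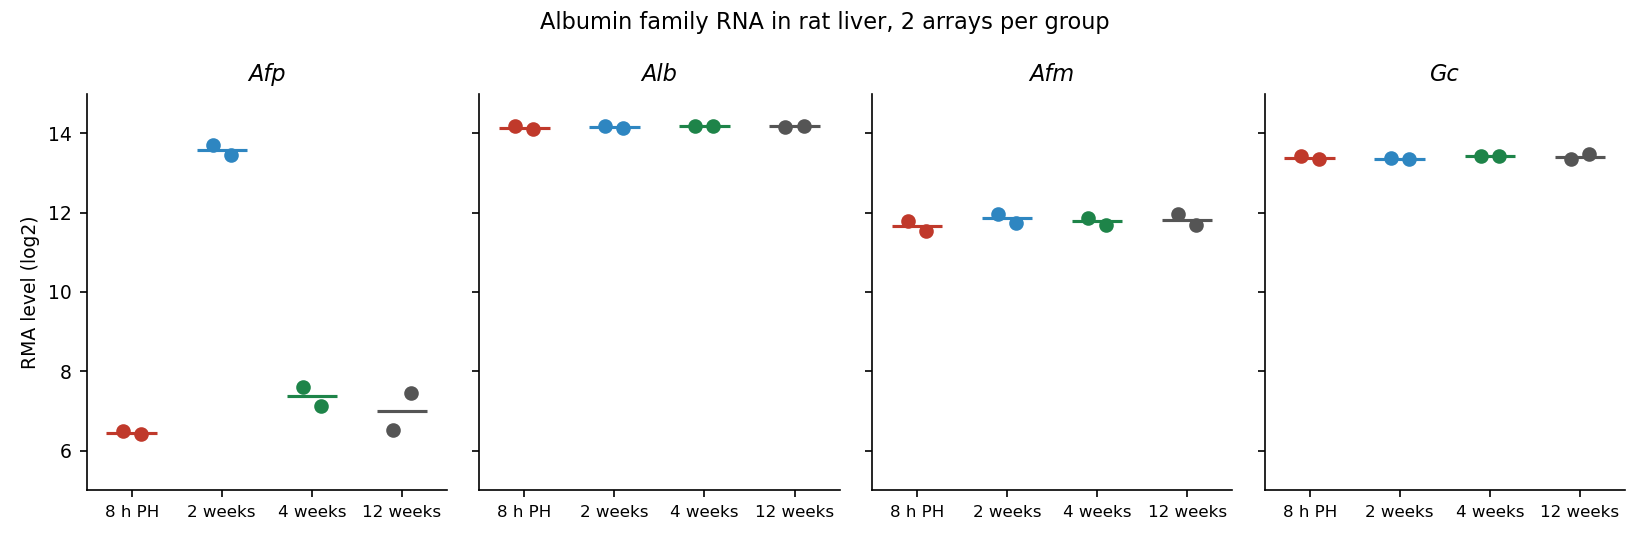
RMA level (log2, vertical axis) of Afp, Alb, Afm and Gc on each of the 2 arrays of the groups 8 h post-PH and 2, 4 and 12 weeks, with points for arrays and lines for group means. Afp reaches 13.7 and 13.44 at 2 weeks and lies between 6.41 and 7.6 elsewhere, while each other member stays within 0.43 log2 units over all arrays.

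Alb varied little on these arrays. It read 14.17 and 14.1 on the PH arrays, 14.19 and 14.14 at 2 weeks, 14.19 and 14.18 at 4 weeks, and 14.16 and 14.19 at 12 weeks. All values lay within 0.09 log2 units. The group means differed by at most 0.05, between PH and 4 weeks (-0.045, limma adjusted p = 0.9797, 95% interval -0.5 to 0.41). In 12-week against 2-week livers the difference was 0.01, with an interval from -0.44 to 0.47. These intervals borrow the spread of other genes, because the fit pools variances, and are far wider than the scatter of the Alb values. Alb was the brightest probe set on 7 arrays and the second brightest on the first 2-week array, where it was 0.04 below the maximum. Whether its probes could still respond to more RNA was not tested, and normalization makes the brightest values of arrays alike. Neither a rise nor a fall of Alb can therefore be judged from these values.

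Gc also varied little. It read 13.42 and 13.35 on the PH arrays, 13.37 and 13.34 at 2 weeks, 13.43 and 13.42 at 4 weeks, and 13.34 and 13.47 at 12 weeks. The 12-week arrays were the farthest apart. The group means differed by at most 0.067, between 4 and 2 weeks (limma adjusted p = 0.9899, 95% interval -0.39 to 0.53), and there the arrays did not overlap. The PH livers differed from the 12-week livers by -0.024 (interval -0.48 to 0.44).

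Afm read 11.78 and 11.53 on the PH arrays, 11.97 and 11.73 at 2 weeks, 11.87 and 11.69 at 4 weeks, and 11.96 and 11.68 at 12 weeks. Each group overlapped with every other. The widest difference of means was -0.19 in PH against 2-week livers (limma adjusted p = 0.8746, 95% interval -0.72 to 0.33). In PH against 12-week livers it was -0.16 (interval -0.68 to 0.37), and in 12-week against 2-week livers -0.034 (interval -0.56 to 0.49). The intervals leave room for changes of up to about the size of their bounds, so equal levels were not shown.

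By comparison, the members called by limma (adjusted p under 0.05) can be set beside all genes. In 12-week against 2-week livers 1 of 4 members was lower, Afp, where 2.23% of genes were called, 0.937% higher and 1.29% lower. In 4-week against 2-week livers it was again 1 of 4, against 0.455% of genes (0.303% higher, 0.152% lower). In PH against 2-week livers it was 1 of 4, against 2.16% of genes (0.793% higher, 1.36% lower). In PH against 12-week livers 0 of 4 were called, and 0 had an unadjusted p under 0.05, where 0.0345% of genes were called (0.0207% higher, 0.0138% lower). In 12-week against 4-week livers the counts were also 0 and 0, with 0.11% of genes called (0.0276% higher, 0.0827% lower). In PH against 4-week livers 0 of 4 were called and 1, Afp, had an unadjusted p under 0.05 (0.02408), with 0.31% of genes called (0.117% higher, 0.193% lower). Of all 14511 genes, 872 had an unadjusted p under 0.05 in PH against 12-week livers. In 12-week against 4-week livers 649 did, and in PH against 4-week livers 1473. The 3 comparisons with calls share the 2-week arrays, so they are not separate evidence. The median difference of the 4 members in 12-week against 2-week livers was -0.01, and that of all genes 0.01.

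**Figure D2:**
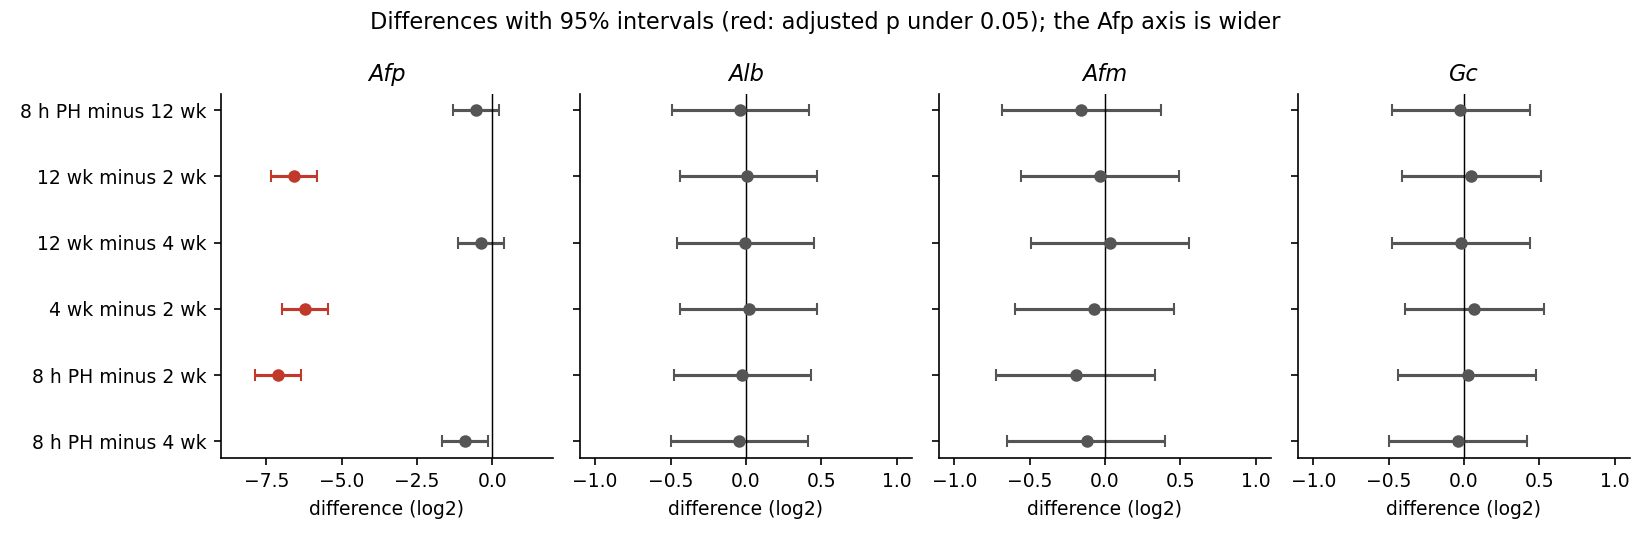
Difference of group means (log2, horizontal axis) of each member in the 6 comparisons, with 95% intervals from the limma fit and red for adjusted p under 0.05. The Afp axis runs wider than the other 3, whose intervals all include 0. The Afp interval in 12-week minus 2-week livers runs from -7.34 to -5.82.

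The genes around the family on chromosome 14 gave the local context. They were chosen after the values of the members had been seen, as the named protein-coding genes between Afm and Gc and the 5 on either side. Of these 14 genes 13 were measured, and Albfm1, a further relative next to Afm, was not analysed here. In none of the 6 comparisons did limma call a neighbour (0 of 13 each). With 2.23% of all genes called in 12-week against 2-week livers and 0.455% in 4-week against 2-week livers, a count of 0 among 13 is near the background and is no result about the neighbours. Cxcl6, Ppbp, Adamts3 and Npffr2 also read low, between 4.61 and 6.17. The 95th percentile of the receptor genes was 5.24 to 6.37 over arrays. Cxcl6 and Npffr2 lay below it on every array, while Ppbp and Adamts3 lay around it. In 12-week against 2-week livers the differences of the 13 neighbours ran from -0.96 for Dck, a kinase of deoxynucleosides, to 0.46, with a median of -0.11. On the first 12-week array Dck (5.62) lay below the receptor genes' 95th percentile (6.37), and on the second (6.68) above it (5.24). The lowest limma adjusted p was 0.4156, for Slc4a4, a bicarbonate transporter. Without adjustment, Slc4a4 had a p of 0.0408. Ankrd17, the protein-coding gene next to Alb on the other side from Afp, read 8.92 and 9.02 on the PH arrays, 8.86 and 9.07 at 2 weeks, 8.68 and 8.43 at 4 weeks, and 8.68 and 9 at 12 weeks.

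**Figure D3:**
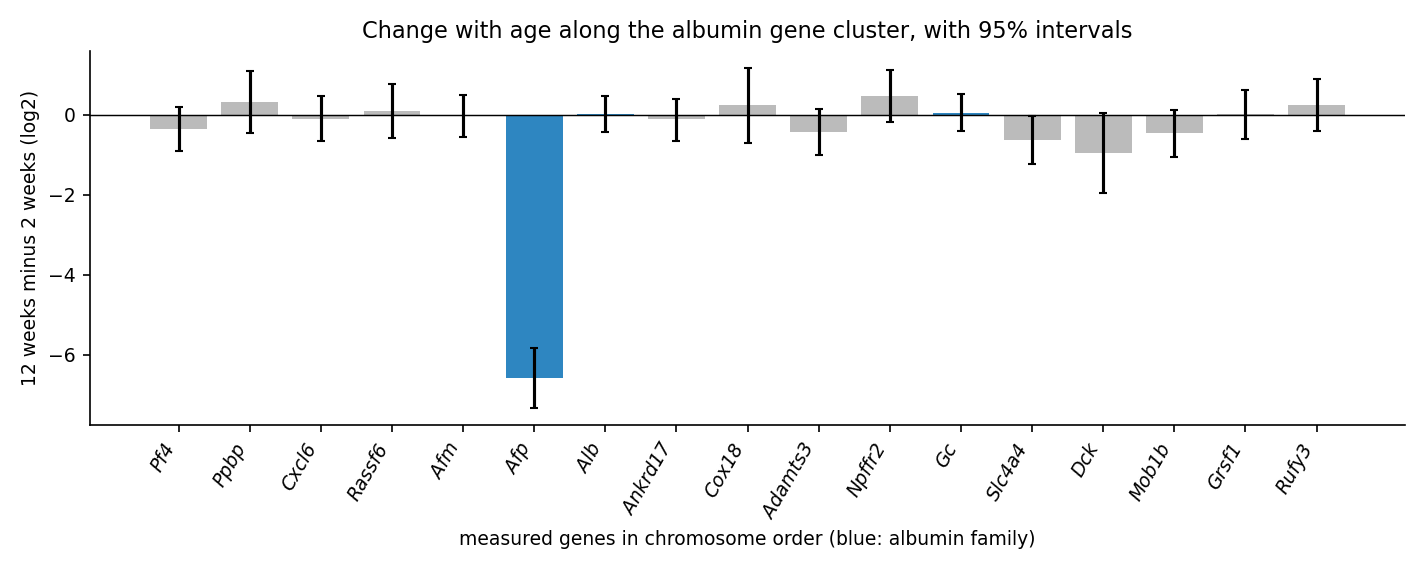
Difference in 12-week minus 2-week livers (log2, vertical axis) for the measured genes around the albumin family in chromosome order, blue for family members and grey for other genes, with 95% intervals. Afp fell by 6.58, and the differences of the 13 grey genes lie between -0.96 and 0.46.

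Of 6 listed repressors of Afp 4 were measured, and limma called 0 of them in any comparison. In 12-week against 2-week livers 2 of the 4 had an unadjusted p under 0.05, Zhx2 and Zbtb20, where 1616 of all 14511 genes did. Zhx2, a zinc-finger and homeobox repressor, read 8.7 and 7.94 on the PH arrays, 7.38 and 7.41 at 2 weeks, 7.94 and 7.75 at 4 weeks, and 8.62 and 8.51 at 12 weeks. The 3 ages did not overlap, and the 2-week arrays were the lowest of all. The difference in 12-week against 2-week livers was 1.17 ± 0.28 (limma adjusted p = 0.09043), and the gene passed in 1 of 20 alternative settings. Zbtb20, a zinc-finger repressor, read 8.11 and 8.1 on the PH arrays, 8.37 and 8.13 at 2 weeks, 8.65 and 8.63 at 4 weeks, and 8.7 and 9.01 at 12 weeks. Its difference was 0.6 ± 0.22 in 12-week against 2-week livers (adjusted p = 0.3179) and -0.75 ± 0.22 in PH against 12-week livers (adjusted p = 0.4711). With 2 arrays a group, arrays that do not overlap add no support to these differences. Between group means Zhx2 spanned 1.17 and Zbtb20 0.75 log2 units, and the relatives Zhx1 and Zhx3 spanned 0.34 and 0.71.

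Among 20 listed factors that act on promoters of the family 17 were measured. In 12-week against 2-week livers, where 0.937% of all genes were called higher and 1.29% lower, 0 rose and 1 fell, Foxa3, in a list whose median was 0.11 where that of all genes was 0.01. Foxa3, a forkhead factor of the liver, averaged 7.28 ± 0.52 at 12 weeks and 9.42 ± 0.02 at 2 weeks, a difference of -2.14 ± 0.29 (limma adjusted p = 0.008954). It was lost without either 2-week array (highest adjusted p 0.07544). It was also lower at 4 weeks than at 2 (-2.23 ± 0.29, adjusted p = 0.01782) and lower after PH than at 2 weeks (-1.99 ± 0.29, adjusted p = 0.01228). In these 2 comparisons the call was lost without any 1 array of the groups compared. Onecut1, a cut-homeobox factor, read 11.02 and 10.33 on the PH arrays, 9.03 and 7.88 at 2 weeks, 9.88 and 9.6 at 4 weeks, and 9.9 and 9.59 at 12 weeks. It rose by 2.22 ± 0.4 in PH against 2-week livers (adjusted p = 0.03079), a call lost without either PH array, the second 2-week array or either 4-week array.

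Hnf4a and Cebpa, central hepatocyte factors, showed no called difference. Hnf4a averaged 11.51 ± 0.43 in PH livers, 11.53 ± 0.06 at 2 weeks, 11.02 ± 0.78 at 4 weeks and 11.62 at 12 weeks. Cebpa averaged 9.65 ± 0.61 in PH livers, 9.94 ± 0.22 at 2 weeks, 9.86 ± 0.51 at 4 weeks and 9.93 ± 0.21 at 12 weeks. Dbp, a clock-driven factor first described on the albumin promoter, read 11.17 and 10.46 on the PH arrays, 9.17 and 8.41 at 2 weeks, 9.51 and 9.53 at 4 weeks, and 7.09 and 9.77 at 12 weeks. Its 12-week arrays spanned the levels of both younger groups, and time of day was not given. Nfic, of the nuclear factor I family, had means between 8.24 after PH and 9.17 at 12 weeks without a call.

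**Figure D4:**
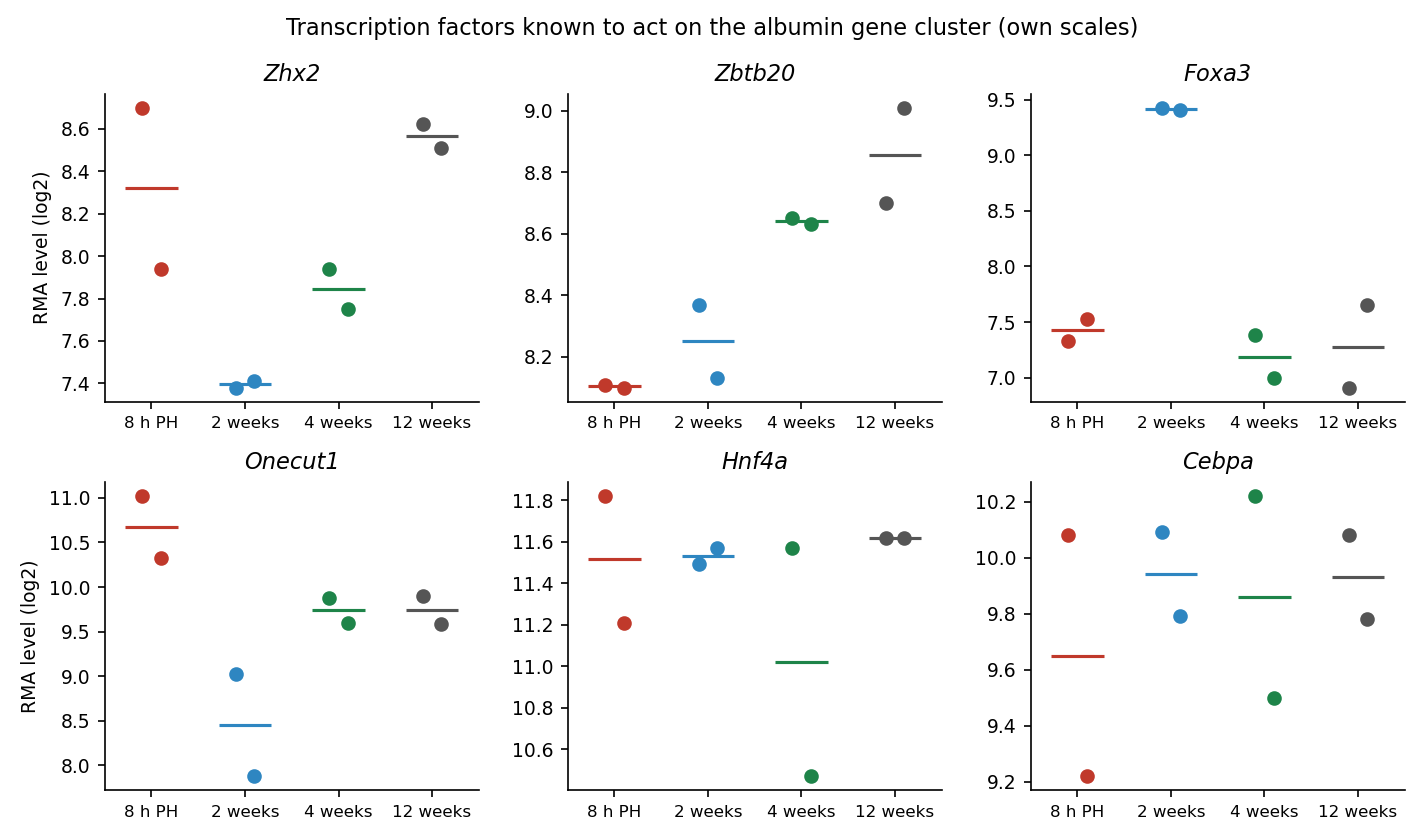
RMA level (log2, vertical axes with their own scales) of Zhx2, Zbtb20, Foxa3, Onecut1, Hnf4a and Cebpa on each array, with lines for group means, in the order 8 h PH, 2, 4 and 12 weeks. Zhx2 lies at 7.38 and 7.41 at 2 weeks and at 8.62 and 8.51 at 12 weeks, and Foxa3 is highest at 2 weeks, while arrays of Hnf4a and Cebpa overlap between most groups.

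Other genes known from fetal liver and liver tumours made a further list. Of 14 listed genes 9 were measured, and in 12-week against 2-week livers 0 rose and 5 fell (list median -1.67, all genes 0.01), where 0.937% of all genes were called higher and 1.29% lower. The 5 were H19, Igf2, Mest, Igf2bp1 and Gpc3. H19, an imprinted non-coding RNA, fell by 6.3 ± 0.41 (limma adjusted p = 2.5e-04) and Igf2, a growth factor of the same imprinted domain, by 5.75 ± 0.39 (adjusted p = 2.8e-04). These 2 calls held in all 20 alternatives. Mest fell by 3.2 ± 0.56 (adjusted p = 0.02712), a call lost without the first 2-week array, either 4-week array or either 12-week array. Igf2bp1, an RNA-binding protein, fell by 1.86 ± 0.3 (adjusted p = 0.01781), lost without the first 2-week or the second 12-week array. It read 5.21 and 5.03 at 12 weeks, below the 95th percentile of the receptor genes (6.37 and 5.24), so it was not above background there and the size of its fall is not settled. Gpc3, a glypican of the cell surface, fell by 1.67 ± 0.24 (adjusted p = 0.01147), lost without the first 2-week array. On the first 12-week array Gpc3 (5.64), Igf2 (5.84) and Mest (6.26) also lay below that percentile, and on the second they lay above it.

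Whether these genes differed from each other in timing was not tested. Of the 9, limma called 1 in 4-week against 2-week livers, Igf2 (-5.39 ± 0.39, adjusted p = 0.001441), and 1 in 12-week against 4-week livers, H19 (-3.91 ± 0.41, adjusted p = 0.01267, lost without either 12-week array). Of all genes 0.455% were called in the former comparison and 0.11% in the latter. H19 read 6.35 and 6.65 on the PH arrays, 13.75 and 13.3 at 2 weeks, 11.8 and 10.45 at 4 weeks, and 7.23 and 7.21 at 12 weeks. At 4 weeks it thus lay between the other ages on both arrays, where Afp was already at 7.6 and 7.13. Igf2 read 6 and 6.02 on the PH arrays, 12.27 and 10.92 at 2 weeks, 6.2 and 6.22 at 4 weeks, and 5.84 and 5.85 at 12 weeks. In PH against 2-week livers the same 5 genes were called lower, led by H19 (-7.03 ± 0.41, limma adjusted p = 1.6e-04), where 1.36% of all genes were. There the calls of Gpc3, Igf2bp1 and Mest were lost without either PH array or the first 2-week array, and those of Igf2bp1 and Mest also without either 4-week array. On the PH arrays Igf2bp1 (5.56 and 5.1) lay below the receptor genes' 95th percentile (5.92 and 5.49), as did Gpc3 on the first (5.63). The sizes of the PH differences of these 2 genes are therefore not settled. In PH against 4-week livers 1 of 9 was called, H19 (-4.63 ± 0.41, limma adjusted p = 0.007447, lost without the first PH array), where 0.31% of all genes were. In PH against 12-week livers 0 of 9 were called and 0 had an unadjusted p under 0.05, where 872 of all 14511 genes did.

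Over the 8 arrays, the genes whose levels ran most like Afp were Gpc3 (Pearson r = 0.987), Igf2 (0.984), Ccnd1 (0.98), Cd9 (0.978) and Dusp10 (0.974), taken from 1625 other genes whose group means spanned at least 1 log2 unit. There were 20 genes with r at or above 0.95 and 21 with r at or below -0.95. The 8 arrays fall into 2-week arrays and the rest, so these values rest on the 2-week step. Among the other 6 arrays r was 0.81 for Gpc3, 0.34 for Igf2, 0.88 for Ccnd1, 0.67 for Cd9 and 0.15 for Dusp10. Ccnd1, the G1 cyclin, read 7.35 and 7.54 on the PH arrays, 9.69 and 9.74 at 2 weeks, 8.01 and 7.95 at 4 weeks, and 7.12 and 7.92 at 12 weeks. Cd9, a tetraspanin, read 6.63 and 6.9 on the PH arrays, 9.2 and 9.3 at 2 weeks, 7.48 and 7.37 at 4 weeks, and 6.82 and 6.84 at 12 weeks. Dusp10, a phosphatase of stress kinases, averaged 7.39 ± 0.25 at 2 weeks and between 6.03 and 6.18 in the other groups. Alb, Afm and Gc spanned under 1 log2 unit and no like genes were sought for them.

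**Figure D5:**
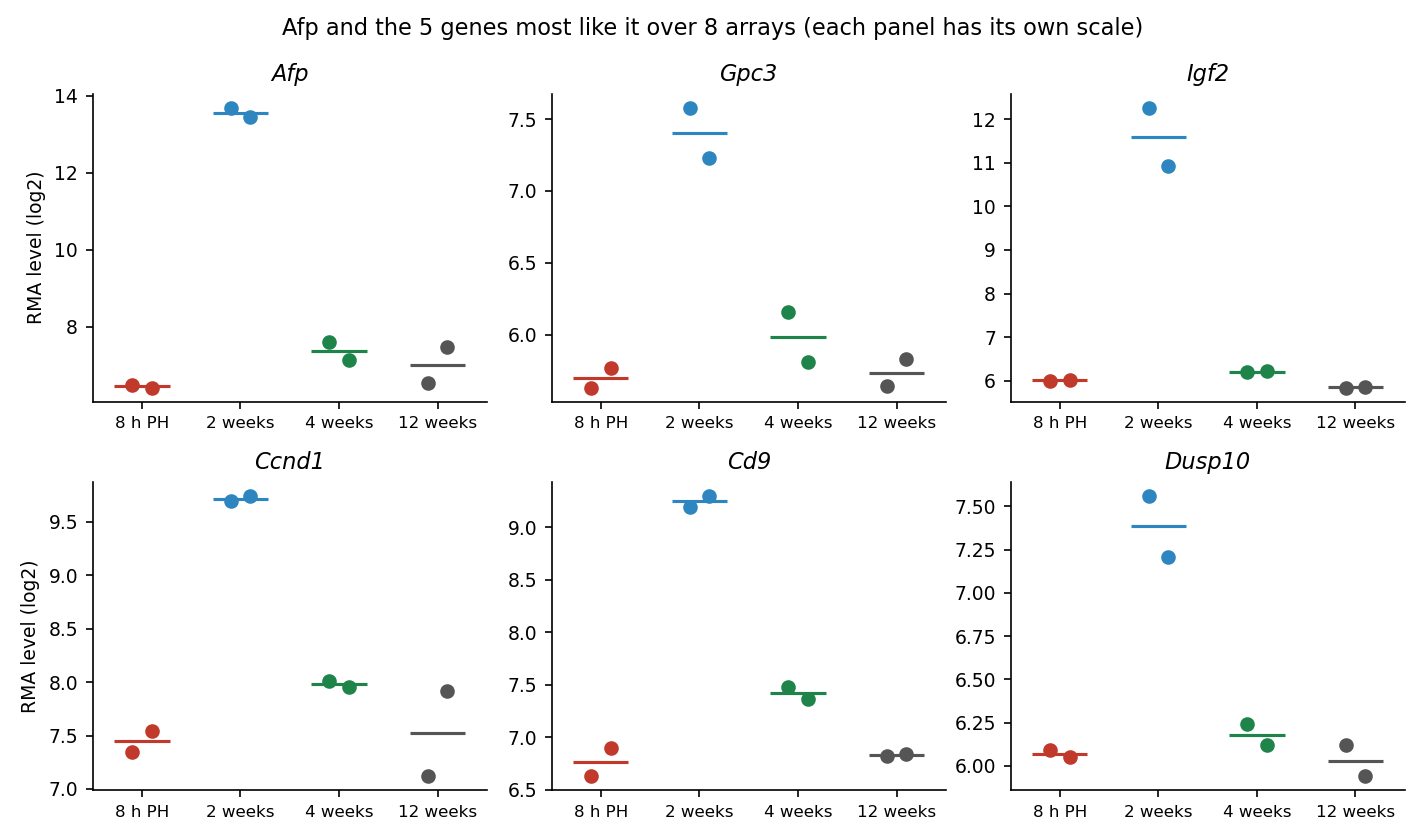
RMA level (log2, vertical axes with their own scales) of Afp and of Gpc3, Igf2, Ccnd1, Cd9 and Dusp10 on each array, with lines for group means, in the order 8 h PH, 2, 4 and 12 weeks. In every panel both 2-week arrays are the highest of the 8.

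The other plasma proteins of hepatocytes formed a list of their own. Of 23 listed genes 22 were measured, and in 12-week against 2-week livers 1 rose and 1 fell, with a list median of -0.09 against 0.01 for all genes, of which 0.937% were called higher and 1.29% lower. Apoa2, an apolipoprotein of HDL, averaged 12.73 ± 0.11 at 12 weeks and 10.34 ± 0.05 at 2 weeks, higher by 2.39 ± 0.24 (limma adjusted p = 0.002494). It was also higher at 4 weeks than at 2 (1.78 ± 0.24, adjusted p = 0.01952, lost without any 1 array of the groups compared) and after PH than at 2 weeks (2.14 ± 0.24, adjusted p = 0.003704). Serpina7, the thyroxine-binding globulin, averaged 7.33 ± 1.92 at 12 weeks and 11.3 ± 0.31 at 2 weeks, lower by 3.97 ± 0.81 (adjusted p = 0.04854). Its 12-week arrays read 8.69 and 5.97, and the call was lost in 12 of 20 alternatives, among them leaving out the second 12-week array or any array of the other 3 groups. Serpina6, the corticosteroid-binding globulin, averaged 12.51 ± 0.15 at 12 weeks and 11.21 ± 0.72 at 2 weeks, without a call. In PH against 12-week livers 0 of 22 were called and 3 had an unadjusted p under 0.05, where 872 of all 14511 genes did. Fga, a fibrinogen chain and acute-phase protein, averaged 13.44 ± 0.13 after PH and 12.63 ± 0.08 at 12 weeks, without a call.

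Receptors and ligand-handling partners of the family made a list of 16 genes, all measured. In 12-week against 2-week livers 1 rose and 1 fell (list median 0.04), against 0.937% and 1.29% of all genes. Lrp2, or megalin, an endocytic receptor for albumin and Gc, averaged 7.07 ± 0.22 at 12 weeks and 5.3 ± 0.21 at 2 weeks, higher by 1.77 ± 0.24 (limma adjusted p = 0.008954, lost without the first 2-week array). After PH it averaged 6.64 ± 0.15, higher than at 2 weeks by 1.35 ± 0.24 (adjusted p = 0.02916, lost without any 1 of the arrays of PH, 2 or 4 weeks). On the 2-week arrays Lrp2 read 5.15 and 5.44, below the receptor genes' 95th percentile (5.33 and 5.5), so it was not above background there and the sizes of both differences are not settled. Sparc, a matrix protein that binds albumin, averaged 10.11 ± 0.49 at 12 weeks and 11.81 ± 0.31 at 2 weeks, lower by 1.7 ± 0.35 (adjusted p = 0.04834, lost in 13 of 20 alternatives, among them leaving out the second 12-week array or any array of the other 3 groups). Fcgrt, the receptor that recycles albumin, averaged 10.57 ± 0.42 in PH livers, 10.97 ± 0.03 at 2 weeks, 10.16 ± 0.05 at 4 weeks and 10.4 ± 0.61 at 12 weeks, without a call. Vdr, the vitamin D receptor, spanned 0.92 and Dab2, an endocytic adaptor, 0.99 log2 units between group means, also without a call. Only on the second 12-week array did Vdr lie above the receptor genes' 95th percentile (6.49 against 5.24), so its span is not settled. In PH against 12-week livers 0 of 16 were called and 0 had an unadjusted p under 0.05, where 872 of all 14511 genes did.

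Cell type markers moved with age beside Afp, and their counts stand against 0.937% of all genes called higher and 1.29% lower in 12-week against 2-week livers. Of 10 hepatocyte markers 1 rose in 12-week against 2-week livers, Apoa2, and the list median was -0.03. Of 8 measured erythroid markers 3 fell (median -1.88), and their mean level over the list was 6.26 on both PH arrays, 8.73 and 8.06 at 2 weeks, 7.47 and 7.77 at 4 weeks, and 6.51 and 6.86 at 12 weeks. Of 7 measured markers of dividing cells 6 fell (median -2.68), with mean levels of 4.87 and 5.03 in PH livers, 7.74 and 7.21 at 2 weeks, 6.34 and 6.53 at 4 weeks, and 5 and 5.44 at 12 weeks. Both PH means lay below the 95th percentile of the receptor genes (5.92 and 5.49), as did the first 12-week mean (6.37). The size of the fall of the dividing-cell markers is therefore not settled. Of 10 stellate and fibroblast markers 3 fell (median -1.51), with mean levels of 7.37 and 7.5 in PH livers, 8.79 and 8.52 at 2 weeks, 8.98 and 7.84 at 4 weeks, and 7.29 and 7.27 at 12 weeks. Among the called genes, the erythroid Ahsp (2.95 and 3.15) and the stellate Des (4.88 and 5.08) lay below that percentile at 12 weeks (6.37 and 5.24). The sizes of the falls of Ahsp and Des are therefore not settled. In each of these 3 lists the mean level was higher on both 4-week arrays than on both 12-week arrays, which is a description only. In 12-week against 4-week livers limma called 0 genes of each list, where 0.11% of all genes were called. An unadjusted p under 0.05 was found there for 4 of 8 erythroid, 6 of 7 dividing-cell and 7 of 10 stellate and fibroblast markers. Of all 14511 genes 649 had one. The part of these 3 lists in the Afp result was not tested.

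The remaining marker lists had 0 limma calls in that comparison. Of 7 progenitor and cholangiocyte markers 0 had an unadjusted p under 0.05, and their mean levels were 5.96 and 5.94 at 12 weeks and 6.34 and 5.74 at 2 weeks. Unadjusted p fell under 0.05 for 1 of 7 macrophage, 1 of 6 endothelial, 4 of 7 lymphocyte and 8 of 8 neutrophil markers, where 1616 of all 14511 genes had one. The list median was 0.84 for lymphocytes, higher at 12 weeks, and -1.63 for neutrophils, lower at 12 weeks. The lymphocyte list had mean levels of 5.58 and 6.54 at 12 weeks and of 5.23 and 5.31 at 2 weeks. Its 2-week means lay below the 95th percentile of the receptor genes (5.33 and 5.5), so the size of its rise is not settled. The neutrophil list had mean levels of 5.14 and 4.94 at 12 weeks and of 7.86 and 5.76 at 2 weeks, in replicate order. Its 12-week means lay below the 95th percentile of the receptor genes (6.37 and 5.24), so the size of its fall is not settled. The part of these lists in the Afp result was not tested. In PH against 12-week livers none of the 9 marker lists had a call (0 in each). The number of members with an unadjusted p under 0.05 was at most 2, for lymphocytes, where 872 of all 14511 genes had one.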

How the data were processed

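RNA levels of 8 arrays in 4 groups were used. The authors deposited log2 values, and the submitters' processing notes name RMA and Affymetrix Expression Console. For versions, filters and a genome build: not given in the sources used here. The table held 29214 probe sets, of which 15316 had 1 gene symbol in the platform annotation, 317 several and 13581 none. Of the single symbols 15285 matched a gene of RefSeq's GRCr8 table, used for names and gene order. The probe set with the highest mean over arrays stood for a gene, which left 14511 genes. No value was filtered. A group-means model over all 8 arrays was fitted in limma 3.58.1 (R 4.3.3; residual degrees of freedom 4, prior 4.27), and p-values were adjusted by Benjamini-Hochberg over all genes of a comparison. The model was tested on simulated data. With 2 arrays a group an exact two-sided permutation test cannot go below p = 0.333 and was not used. The members, the gene lists (repressors, factors, fetal genes, plasma proteins, partners and 9 marker lists) and the rule for named genes were chosen with earlier results of these data known. That rule takes all members, of each list the called genes and the 4 of widest span, 7 fixed genes where measured, and the 5 genes most like a member that spans at least 1 log2 unit. The neighbour genes were chosen later. Promoter sequences are RefSeq's for GRCr8. Alternatives left out each array, rescaled the arrays, filtered dim genes, used all or averaged probe sets, blocked by replicate number, changed the variance model, used only the groups compared, a stricter threshold or receptor-gene level as a covariate.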

Additional observations from a re-analysis of the deposited data

How the results depend on the processing

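The number of members called was the same in all 20 alternatives of each comparison. The fall of Afp kept its call in all 20 in 12-week against 2-week (-7.05 to -6.11), 4-week against 2-week (-6.44 to -5.97) and PH against 2-week livers (-7.25 to -6.84). All sign changes of the members were in differences that limma did not call. Leaving out 1 array each gave -0.84 to 0.094 for Afp in 12-week against 4-week livers; for Gc -0.089 to 0.041 in PH against 12-week, -0.017 to 0.11 in 12-week against 2-week, -0.085 to 0.046 in 12-week against 4-week and -0.011 to 0.059 in PH against 2-week livers; for Alb -0.016 to 0.036 in 12-week against 2-week, -0.021 to 0.0036 in 12-week against 4-week, -0.007 to 0.045 in 4-week against 2-week and -0.061 to 0.0083 in PH against 2-week livers; for Afm -0.17 to 0.11 in 12-week against 2-week, -0.1 to 0.18 in 12-week against 4-week, -0.19 to 0.049 in 4-week against 2-week and -0.25 to 0.0007 in PH against 4-week livers. Subtracting array medians turned Alb to -0.01 in 12-week against 2-week, 0.039 in 12-week against 4-week, -0.049 in 4-week against 2-week and 0.014 in PH against 4-week livers, and Gc to 0.028 in 12-week against 4-week, -0.00064 in 4-week against 2-week and 0.016 in PH against 4-week livers. Subtracting the 75th percentile turned Afm to 0.047 in 12-week against 2-week and 0.017 in 4-week against 2-week livers, and Alb to 0.027 in PH against 2-week livers. Quantile normalization turned Afm to 0.03 in 12-week against 2-week and 0.00048 in 4-week against 2-week livers, and Alb to 0.039 in PH against 2-week livers. The receptor-gene level as a covariate turned Afm to -0.077 and Gc to 0.0041 in 12-week against 4-week livers. Without the first PH and first 12-week array together, chosen after seeing the data because both had a raised receptor-gene level, Alb was 0.0036, Afp 0.094, Afm -0.1 and Gc 0.046 in 12-week against 4-week livers, and Gc -0.011 in PH against 2-week livers. The cause of these shifts was not tested.

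Counts over all genes moved more, with the range over alternatives in brackets: 5 (1 to 41) in PH against 12-week, 323 (101 to 515) in 12-week against 2-week, 16 (5 to 30) in 12-week against 4-week, 66 (26 to 140) in 4-week against 2-week, 313 (72 to 498) in PH against 2-week and 45 (6 to 232) in PH against 4-week livers. The lowest of each, in that order, came without the second PH, first 2-week, first 4-week, second 4-week, first PH and, at the same count of 6, first PH or first 4-week array. With the replicate number as a block the members' calls were the same, and 41, 515, 30, 129, 498 and 143 genes were called in that order. Deviations of same-numbered arrays correlated between 0.023 and 0.568 over the 6 pairs of groups, all above 0, and 25.3% of genes differed with 1 sign between the numbered arrays in all 4 groups. These values are a hint at a shared effect of the number. The labels name no animal, litter or day behind it and 1 pair of groups (12 and 2 weeks) was at 0.023, so the block is given as an alternative only.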

Other observations

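Afm read higher on the first than on the second array of all 4 groups, by 0.25 after PH and by 0.24, 0.18 and 0.28 in the groups of 2, 4 and 12 weeks, so that its arrays differed more by number than by group. Of all 14511 genes 1871 (12.9%) read higher on the first array in all 4 groups. Alb, Gc and Afp were higher on the first array in PH, 2-week and 4-week livers and lower on it at 12 weeks, by -0.02 for Alb, -0.13 for Gc and -0.94 for Afp.

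Within groups Alb and Gc had SDs of 0.032 and 0.053, and 0.0689% and 0.42% of genes had a smaller one. Alb was at the top of the scale, where saturation could not be checked. Normalization also makes the brightest values of arrays alike. With the arrays quantile normalized again, the Alb difference was 0.0 in PH against 12-week and in 12-week against 4-week livers. Its small spread therefore cannot be read as a steady RNA level. Gc was between 0.72 and 0.87 below the brightest probe set of its array.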
